A study of Saccharomyces cerevisiae with 12 samples.

Results

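The alcohol dehydrogenase family of budding yeast (Saccharomyces cerevisiae) was followed as 8 genes chosen by their systematic names, of 7127 features in the count table. They are ADH1 to ADH7 and SFA1. The rule uses names and no measured value, although earlier results of these data were known when the family was picked. All 8 passed the filter on low counts. The 12 RNA sequencing libraries formed 4 groups of 3 biological replicates, all labelled strain BY4741, a haploid laboratory strain of mating type a derived from S288C. WT and the mutant Rpd3-2SA were each grown with glucose, in the rich medium YPD, or with sucrose, and harvested at mid-log phase. Rpd3 is a histone deacetylase that acts with Sin3 in complexes that repress many genes. The question named in the series title is the role of Rpd3 phosphorylation in expression during growth on these sugars. What the 2SA allele changes, and whether the mutant is 1 clone, is left unsaid by the labels.

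Alcohol dehydrogenases interconvert alcohols and aldehydes with NAD(H) or NADP(H). In fermenting yeast, pyruvate decarboxylase makes acetaldehyde and Adh1 reduces it to ethanol, which returns NAD+ to glycolysis. Adh2 runs the reverse step when cells consume ethanol, and ADH2 is the textbook gene repressed by glucose and switched on by the activators Adr1 and Cat8 under the Snf1 kinase. Adh3 sits in mitochondria, Adh4 belongs to a separate protein family, and Adh6 and Adh7 are NADPH-dependent enzymes of broad substrate range. Sfa1 also oxidizes the glutathione adduct of formaldehyde.

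ADH1 and ADH2 encode nearly the same protein, which matters for counting. Their coding sequences are both 1047 bases long and share 930 identical positions (88.8%), with 117 differences and a longest identical run of 189 bases. The first 60 coding bases of each are shown from the R64 genome, on the minus strand, with the 7 differing bases in capitals, since reads can be told apart only across such positions.
ADH1, chrXV:160535-160594: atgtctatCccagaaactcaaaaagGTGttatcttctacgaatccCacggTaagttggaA
ADH2, chrXIII:874278-874337: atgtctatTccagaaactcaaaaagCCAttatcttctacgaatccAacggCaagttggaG
Of all 50-base windows of either gene, 14% occur elsewhere in the genome, and 20.6% of 25-base windows. For the other 6 members the share was 0 at both lengths, and none has a match of at least 80% identity over 100 bases to another feature. The treatment of reads with several matches is unknown here. Levels of ADH1 and ADH2 are therefore uncertain by an amount that was not tested and that these shares of windows do not measure. In the glucose libraries ADH2 counts were 0.166% to 0.437% of ADH1 counts. No member overlaps another annotated feature.

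The upstream regions of the pair differ. The 300 bases before the start codon are shown for ADH2, ADH1, ADH5 and ADH7, the members whose levels carry the comparisons, from the R64 genome. Capitals mark matches, on either strand, to the core of Adr1 (TTGGNG), Ume6 (GCCGCC), the stress response element (AGGGG) or Yap1 (TTACTAA).
ADH2, chrXIII:874338-874637, minus strand: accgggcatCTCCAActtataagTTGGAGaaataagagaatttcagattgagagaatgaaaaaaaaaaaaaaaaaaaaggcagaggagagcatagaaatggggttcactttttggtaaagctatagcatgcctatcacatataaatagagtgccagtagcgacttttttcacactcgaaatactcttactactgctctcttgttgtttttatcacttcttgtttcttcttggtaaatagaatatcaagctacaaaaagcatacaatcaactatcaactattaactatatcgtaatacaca
ADH1, chrXV:160595-160894, minus strand: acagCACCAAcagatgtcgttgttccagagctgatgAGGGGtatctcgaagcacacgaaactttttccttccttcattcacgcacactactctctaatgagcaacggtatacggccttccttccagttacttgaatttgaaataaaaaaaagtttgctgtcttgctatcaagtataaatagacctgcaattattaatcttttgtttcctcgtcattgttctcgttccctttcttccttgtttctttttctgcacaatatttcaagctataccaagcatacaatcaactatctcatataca
ADH5, chrII:533462-533761, plus strand: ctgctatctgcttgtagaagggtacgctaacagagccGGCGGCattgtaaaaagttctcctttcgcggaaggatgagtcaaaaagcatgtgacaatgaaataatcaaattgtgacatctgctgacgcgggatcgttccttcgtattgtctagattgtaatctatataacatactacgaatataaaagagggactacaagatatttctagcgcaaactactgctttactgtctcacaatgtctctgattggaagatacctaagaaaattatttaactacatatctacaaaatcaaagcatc
ADH7, chrIII:308770-309069, plus strand: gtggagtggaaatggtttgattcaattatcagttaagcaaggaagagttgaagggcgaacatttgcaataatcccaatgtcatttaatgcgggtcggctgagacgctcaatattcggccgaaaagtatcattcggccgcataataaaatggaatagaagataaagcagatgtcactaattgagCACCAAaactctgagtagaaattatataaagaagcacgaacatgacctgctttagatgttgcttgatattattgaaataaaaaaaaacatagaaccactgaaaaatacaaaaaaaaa
ADH2 holds 2 matches to the Adr1 core, in opposite orientation, at 291 to 286 and 277 to 272 bases before the start codon. Among 5988 windows of the same length before protein-coding genes, 32.7% hold at least 1 such match and 7.16% hold 2 or more. ADH1, ADH6, ADH7 and SFA1 hold 1 each, a single match that a large share of all genes also has. The single Ume6 core among the members lies before ADH5, 263 to 258 bases upstream, and 5.19% of all windows hold one. The stress response element was found before ADH1 alone among the members and in 22.2% of all windows. No member's window holds the Yap1 letters, which 7.85% of all windows hold. The upstream sequence is a description of these letters and no evidence of binding.

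Library totals lay between 20775911 and 25360037 counts. The family together took 0.244% to 0.428% of each library, lowest in both sucrose libraries numbered 2. These also held few counts of 132 ribosomal protein genes, 3.86% in WT and 5.57% in 2SA. The remaining sucrose libraries held 9.28% to 12.7% and the glucose libraries 13.6% to 16.7%. Libraries that share a number and a sugar deviated from their group means in the same way in both genotypes, so genotype comparisons are also given with the number as a block where that changes a call. Mating type a genes were present (STE2 at 93.5 to 277 CPM, the count relative to the TMM-scaled library total, and MFA1 at 7.51 to 31.8). The alpha genes MF(ALPHA)1 and STE3 lay at 0 to 0.297 and 0 to 4.67 CPM. A further alpha gene, MF(ALPHA)2, had 3.38 to 6.92 CPM, not far below MFA1. URA3, which BY4741 is known to lack, had 233 to 521 CPM in the 12 libraries. LEU2 and MET17, which BY4741 is also known to lack, had 1 count in total and 0. HIS3, another marker of the strain, had 29.8 to 69.1 CPM, which does not tell whether the gene is intact. RPD3 itself had 90.7 to 136 CPM, a level that says nothing of its allele.

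Levels within the family spanned orders of magnitude. Compared per length, as CPM per kilobase with SD and n = 3, ADH1 led in WT in glucose with 3042 ± 272 and stood at rank 69 of 7127 features over the 12 libraries. ADH6 followed with 410 ± 75.3 and ADH3 with 283 ± 31.3, and the replicates of these leading members did not overlap. SFA1 (54.5 ± 6.33), ADH5 (42.5 ± 20.6) and ADH4 (32.5 ± 4.31) came next, and each overlapped its neighbour in that order. ADH7 (11.1 ± 1.19) and ADH2 (9.05 ± 3.03) were lowest in WT in glucose and overlapped each other. In 2SA in glucose ADH4 (35.3 ± 2.92) and ADH5 (30.6 ± 16.9) stood in the opposite order, overlapping as before. The lowest members were also in the opposite order there, with ADH2 (11.6 ± 1.16) above ADH7 (2.89 ± 0.764) and no overlap. In sucrose ADH2 stood at the fourth place in both genotypes, at 138 ± 135 in WT and 159 ± 102 in 2SA, overlapping ADH3 above and SFA1 below.

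**Figure D1:**
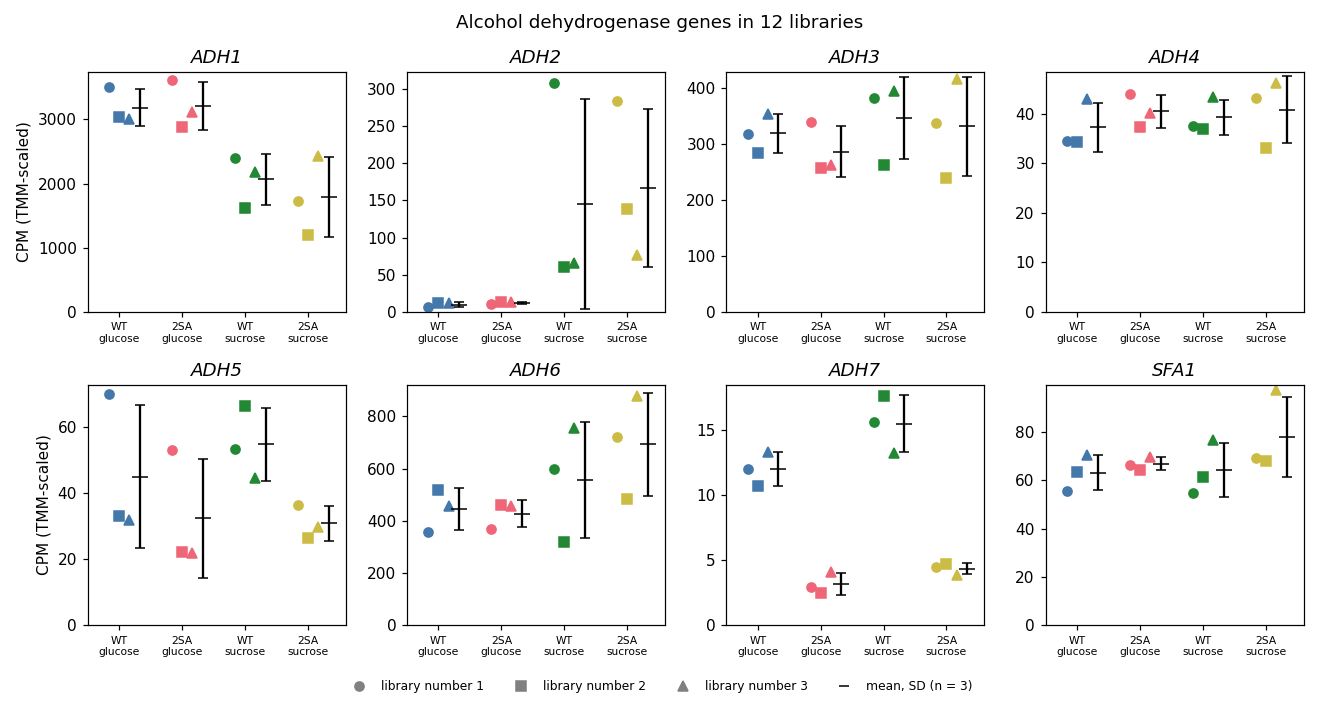
TMM-scaled CPM (vertical axis, linear from 0, its own range per gene) of the 8 genes in WT and 2SA in glucose and sucrose. Points are libraries, shaped by library number, and black bars give the mean and SD of 3. ADH2 is 5.81 to 13.1 CPM in all glucose libraries and 60.4 to 308 in sucrose, and ADH7 is 10.7 to 17.6 CPM in WT and 2.43 to 4.68 in 2SA.

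ADH7 was the only member that edgeR called between genotypes without a block, lower in 2SA in both sugars. It encodes an NADPH-dependent alcohol dehydrogenase that reduces cinnamaldehyde and similar aldehydes, and lies on chromosome III (309070 to 310155, YCR105W), 6465 bases from the right end. In glucose the WT libraries had 12, 10.7 and 13.3 CPM and the 2SA libraries 2.94, 2.43 and 4.05. In sucrose WT had 15.6, 17.6 and 13.2 CPM and 2SA 4.43, 4.68 and 3.84. All 6 values of 2SA lay below all 6 of WT, on raw counts of 59 to 125 in 2SA and 221 to 437 in WT. The log2 fold change was −1.94 ± 0.22 (SE) in glucose, a 3.83-fold lower level (edgeR quasi-likelihood test, Benjamini-Hochberg adjusted p = 0.00691). In sucrose it was −1.84 ± 0.21, or 3.58-fold lower (adjusted p = 0.00986, edgeR). In RNA from whole cultures, fewer cells expressing a gene and less RNA per cell cannot be told apart.

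Calls required an adjusted p under 0.05 together with a fold above 1.5, the limits that the design text names. In each sugar 1 of 8 members was called lower in 2SA, where 0.0493% of 6085 features were called lower. Groups did not overlap in 7.35% of features in glucose and 6.26% in sucrose. The sizes of the 2 genotype differences of ADH7 were close. Their difference, the interaction of genotype and sugar, was 0.10 ± 0.30 on the log2 scale (adjusted p = 1, edgeR), an estimate whose SE leaves room for unequal effects. Between the sugars ADH7 was not called, at log2 0.36 ± 0.21 in WT and 0.46 ± 0.22 in 2SA (adjusted p = 0.303 and 0.290, edgeR).

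With all 12 libraries ADH7 was also called with the block within each sugar (edgeR adjusted p = 4.50e-04 in glucose and 4.28e-04 in sucrose). The same held with a block shared by both sugars (edgeR adjusted p = 0.0185 and 0.0237) and in DESeq2 (adjusted p = 1.13e-15 and 2.38e-15). The ADH7 call was lost in several smaller fits. Without WT glucose library 3 or 2SA glucose library 1 the call in glucose was lost (edgeR adjusted p = 0.0501 and 0.0570), and without 2SA sucrose library 1 or 2 that in sucrose (0.102 and 0.0567). A fit of the 2 compared groups alone did not call it either (edgeR adjusted p = 0.122 for glucose, 0.169 for sucrose), nor did one without all libraries numbered 2 (0.433 and 0.569) or, for sucrose, without both sucrose libraries numbered 2 (0.193). With the block it was called without all libraries numbered 2 (edgeR adjusted p = 0.0303 and 0.0253). Over all settings the log2 fold change stayed between −2.16 and −1.78 in glucose and between −1.92 and −1.73 in sucrose.

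The genes beside ADH7 were examined to place its change. Toward the chromosome end lie RDS1, a zinc cluster transcription factor gene, and AAD3, a putative aryl-alcohol dehydrogenase gene. In glucose RDS1 had 18.5 ± 0.681 CPM with WT and 14.1 ± 2.53 with 2SA, and in sucrose 17.4 ± 0.765 and 11.8 ± 1.71. The WT and 2SA values of RDS1 did not overlap in either sugar, yet the differences (log2 −0.39 ± 0.17 and −0.56 ± 0.17) did not pass the test (edgeR adjusted p = 1 and 0.597). Blocked by library number within each sugar, RDS1 had log2 −0.40 ± 0.12 and −0.56 ± 0.12. It stayed uncalled, closely so for sucrose (edgeR adjusted p = 0.296 and 0.0513). In glucose AAD3 had 40.9 ± 3.04 CPM with WT and 29.8 ± 4.77 with 2SA, without overlap and without a call (log2 −0.46 ± 0.23, edgeR adjusted p = 1). In sucrose AAD3 overlapped between genotypes (32.4 ± 7.62 and 26.6 ± 8.26 CPM). On the other side, YCR102C had 1.78 to 4.25 CPM as group means, with log2 differences of −0.63 ± 0.45 and −0.70 ± 0.44 that were not called (edgeR adjusted p = 1 and 0.998). YCR102W-A (3 to 42 counts per library) and the seripauperin gene PAU3 (0 to 13) did not pass the edgeR filter on low counts, and YCR108C had no count in any library. DESeq2, run with no such filter, called neither of them between genotypes. Its estimate for YCR102W-A in sucrose was log2 −2.04 ± 0.79 (adjusted p = 0.553), on 8, 42 and 6 counts in WT and 5, 6 and 3 in 2SA, without overlap. The point estimates of the 3 neighbours tested in edgeR were negative, and smaller in size than that of ADH7.

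**Figure D2:**
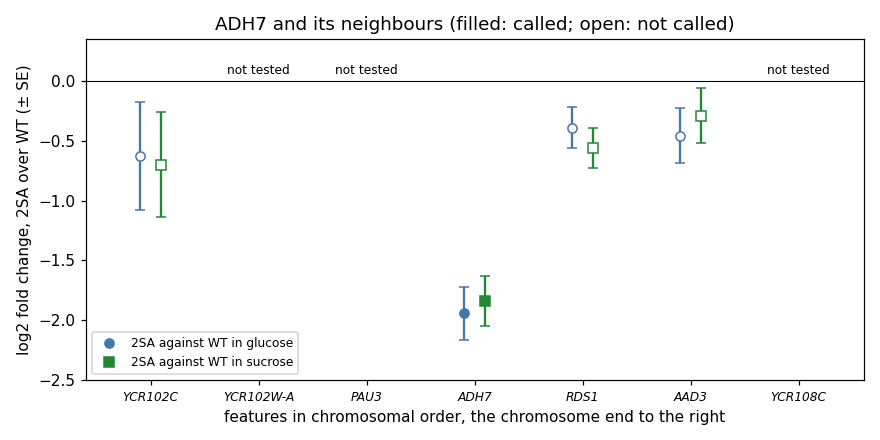
Log2 fold change of 2SA over WT with its SE (vertical axis) for ADH7 and the 3 annotated features on each side, in chromosomal order (horizontal axis, not to scale), in glucose and in sucrose. ADH7 stands at −1.94 and −1.84 and is called (filled), while the neighbours tested in edgeR lie between −0.70 and −0.29 and are not (open). Features marked as not tested did not pass the edgeR filter.

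By a rule of likeness, the features nearest to ADH7 in shape were sought over the 12 libraries. The measure was the root mean square difference of centred log2 CPM, among 5445 other features of at least 5 CPM on average, where the median feature differed from ADH7 by 1.02. Nearest was IRC4 on chromosome IV at 0.32, then HXT12, a hexose transporter pseudogene on chromosome IX, at 0.41 and AFB1, a gene of mating type a cells on chromosome XII, at 0.44. In glucose IRC4 had 20.7 ± 6.28 CPM with WT and 5.43 ± 1.25 with 2SA, and in sucrose 26 ± 7.87 and 7.26 ± 2.25. Its log2 fold changes of −1.93 ± 0.33 and −1.83 ± 0.33 were not called without a block (edgeR adjusted p = 0.113 and 0.150). With the library number as a block within each sugar they were (log2 −1.92 ± 0.11 and −1.84 ± 0.11, adjusted p = 1.20e-04 and 2.47e-04, edgeR). These features were chosen for their values, so their differences are descriptions.

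ADH5, a minor alcohol dehydrogenase gene that can make ethanol where ADH1 is absent, was lower in 2SA in every pair of libraries of the same number. It lies on chromosome II (533762 to 534817, YBR145W). In glucose the WT libraries had 70.0, 32.9 and 31.9 CPM and the 2SA libraries 53.0, 22.0 and 21.9. In sucrose WT had 53.4, 66.5 and 44.6 CPM and 2SA 36.5, 26.3 and 29.6. Library 1 was high in both glucose groups, so these overlapped, while in sucrose the groups did not overlap. Without a block ADH5 was not called in glucose (log2 −0.48 ± 0.39, adjusted p = 1, edgeR) or in sucrose (−0.83 ± 0.39, adjusted p = 0.998). With the block within each sugar it was called lower in sucrose (log2 −0.83 ± 0.15, edgeR adjusted p = 0.0239) and not in glucose (−0.50 ± 0.15, adjusted p = 0.267). Neither a block shared by both sugars (log2 −0.87 ± 0.28, edgeR adjusted p = 0.451) nor DESeq2 (adjusted p = 1) called ADH5 in sucrose. That blocked fit called 2 of 8 members lower in sucrose, ADH7 and ADH5, where 1.61% of all features were called lower, and in glucose ADH7 alone, where 0.362% were. Without all libraries numbered 2, the blocked ADH5 value in sucrose was −0.57 and no longer called (edgeR adjusted p = 0.139), a smaller difference since the pair numbered 2 was apart by −1.34 against −0.55 and −0.59. The interaction of ADH5 was not called with or without the block (edgeR adjusted p = 0.999 and 1).

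**Figure D3:**
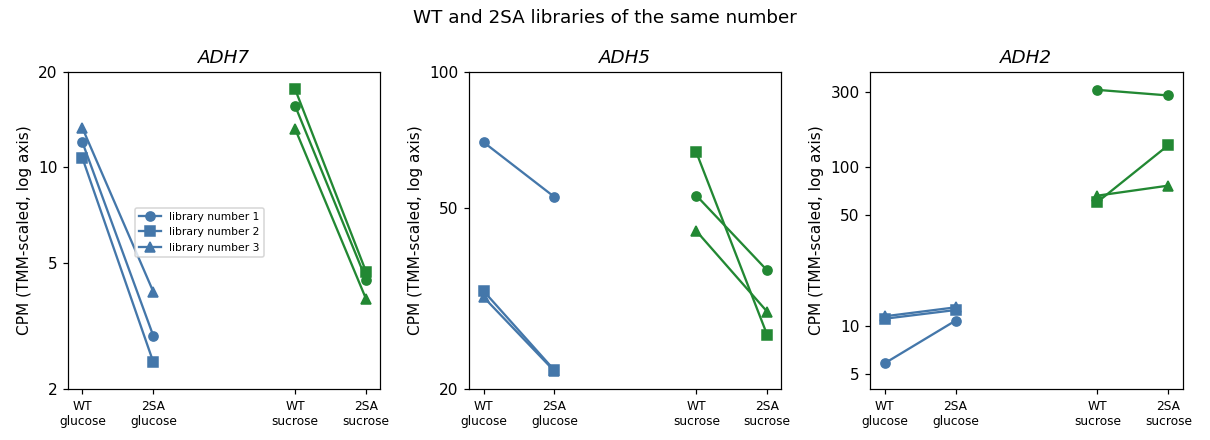
CPM on a log axis of ADH7, ADH5 and ADH2 in WT and 2SA libraries, with lines joining libraries of the same number within glucose (blue) and sucrose (green). ADH7 and ADH5 fall along all 6 lines, and ADH2 is highest in both sucrose libraries numbered 1 (308 and 284 CPM).

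ADH2 was the only member that edgeR called between sugars, higher in sucrose in both genotypes. It lies on chromosome XIII (873291 to 874337, YMR303C). In glucose its WT libraries had 5.81, 11.1 and 11.5 CPM and its 2SA libraries 10.8, 12.6 and 13.1. In sucrose the WT libraries had 308, 60.4 and 66.3 CPM and those of 2SA 284, 138 and 76.7. Every sucrose library stood above every glucose library, and libraries numbered 1 were the highest in sucrose in both genotypes. The log2 fold change of sucrose over glucose was 3.93 ± 0.69 in WT, a 15.3-fold rise (edgeR adjusted p = 0.0182), and 3.78 ± 0.69 in 2SA, a 13.7-fold rise (adjusted p = 0.0301). In each genotype 1 of 8 members was called higher in sucrose, where 2.91% of all features were in WT and 1.61% in 2SA. Groups did not overlap in 26.3% and 27.2% of features.

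The size of the ADH2 rise rested in part on the libraries numbered 1. Without WT sucrose library 1 its log2 value in WT was 2.74, still called (edgeR adjusted p = 0.0317), and without 2SA sucrose library 1 that in 2SA was 3.15 and not called (0.0915). The call in WT was lost without WT glucose library 1, 2 or 3 (edgeR adjusted p = 0.0591, 0.0822 and 0.0762). The call in 2SA was also lost without 2SA glucose library 1, 2 or 3 (0.121, 0.140 and 0.0889), 2SA sucrose library 2 (0.0680) or WT glucose library 2 or 3 (0.0527 and 0.0505). Neither was it called without all libraries numbered 2 (0.153 in WT and 0.220 in 2SA) or with only the compared groups (0.118 and 0.0512). The direction was the same in these fits. As a share of ADH1 counts, which needs no library scaling, ADH2 counts were 0.166% to 0.437% in glucose and 3.04% to 16.4% in sucrose. The part that reads shared between both genes have in the ADH2 counts was not tested.

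Genotype did not give a called difference in ADH2. The values of 2SA over WT were log2 0.36 ± 0.63 in glucose and 0.20 ± 0.61 in sucrose. Neither passed (edgeR adjusted p = 1 and 0.998), and WT and 2SA libraries overlapped in both sugars. The sucrose estimate turned negative when some single libraries were left out (−0.43 without 2SA sucrose library 1). The interaction was −0.16 ± 0.88 (adjusted p = 1, edgeR), so sucrose responses that differ by severalfold lie within the error. Nearest to ADH2 by the measure of likeness were PDH1 of propionate use (0.45), the carnitine carrier gene CRC1 (0.69) and PCK1 of gluconeogenesis (0.74), where the median feature differed by 1.93. PDH1 went from 15.3 ± 1.93 to 128 ± 88.3 CPM in WT and from 17.8 ± 4.84 to 174 ± 79.6 in 2SA.

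**Figure D4:**
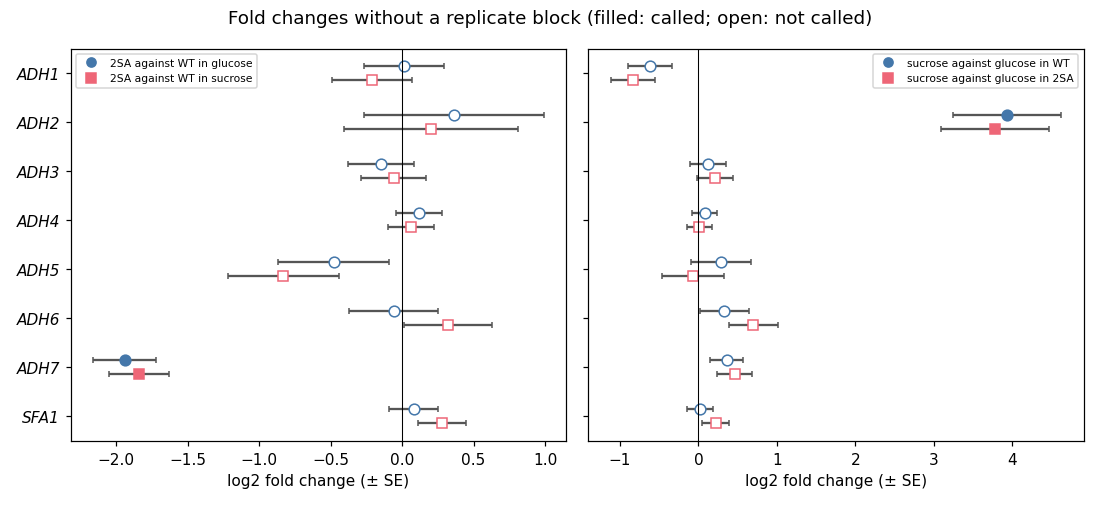
Log2 fold changes with SE (horizontal axis) of the 8 genes without a block, for 2SA against WT (left) and sucrose against glucose (right). Filled points are called. ADH7 is called in both genotype comparisons (−1.94 and −1.84) and ADH2 in both comparisons of sugars (3.93 and 3.78).

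ADH1, the main ethanol-forming enzyme gene (chromosome XV, 159548 to 160594, YOL086C), had lower values in every sucrose library than in any glucose library. In glucose WT had 3513, 3043 and 3000 CPM and 2SA 3620, 2884 and 3118. In sucrose WT had 2398, 1619 and 2182 CPM and 2SA 1729, 1194 and 2435. The lowest value of each sucrose group was in the library numbered 2. The log2 values of sucrose over glucose, −0.62 ± 0.28 in WT and −0.84 ± 0.28 in 2SA, did not pass (edgeR adjusted p = 0.202 and 0.143). DESeq2 called ADH1 lower in sucrose in 2SA (log2 −0.87, adjusted p = 0.0196), along with 2.07% of all features, and not in WT (−0.65, adjusted p = 0.0839). The genotype differences of ADH1 were 0.01 ± 0.28 in glucose and −0.21 ± 0.28 in sucrose, with overlapping libraries.

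ADH6, an NADPH-linked member, and the mitochondrial ADH3 were not called in any comparison. ADH6 (chromosome XIII, 911061 to 912143, YMR318C) ranged in glucose from 357 to 518 CPM with WT and from 367 to 460 with 2SA. In sucrose it had 600, 317 and 754 CPM in WT and 721, 484 and 877 in 2SA, lowest in both libraries numbered 2. Sucrose values of 2SA lay above its glucose values without overlap, at log2 0.70 ± 0.31 and not called (edgeR adjusted p = 0.268). In WT they overlapped (0.33 ± 0.31, adjusted p = 0.546, edgeR). In sucrose 2SA exceeded WT in ADH6 in 3 of 3 pairs (log2 0.26, 0.61 and 0.22), without a call with the block (0.36 ± 0.10, edgeR adjusted p = 0.103). ADH3 (chromosome XIII, 434788 to 435915, YMR083W), whose enzyme takes part in passing reducing equivalents across the mitochondrial membrane, had 240 to 417 CPM over all libraries. Its log2 differences ran from −0.15 to 0.21 over the 4 comparisons, none called.

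SFA1, of formaldehyde and long-chain alcohol oxidation, and ADH4 were not called in any comparison either. SFA1 (chromosome IV, 159604 to 160764, YDL168W) had group means in glucose of 63.2 ± 7.35 CPM with WT and 67.0 ± 2.63 with 2SA. In sucrose they were 64.3 ± 11.3 and 78.2 ± 16.6 CPM. In sucrose 2SA was higher in 3 of 3 pairs, at log2 0.28 ± 0.17 and not called (edgeR adjusted p = 0.998, and 0.126 with the block). ADH4 (chromosome VII, 15159 to 16307, YGL256W) had group means of 37.3 to 40.9 CPM. Its log2 differences lay between 0.01 and 0.12 over the 4 comparisons with SE of 0.16, and every pair of groups overlapped. ADH4 lies 15158 bases from the left end of its chromosome, next to the zinc transporter gene ZRT1, and is known to be switched on in low zinc. ZRT1 had 316 ± 145 CPM in WT in glucose and 949 ± 544 in sucrose (log2 1.59 ± 0.48, edgeR adjusted p = 0.0879, not called, and 0.0139 by DESeq2, which called it). The other tested neighbours of ADH4, namely YGL258W-A, VEL1, MNT2, FZF1 and HXK2, were not called in any comparison without a block. Of these YGL258W-A had few counts, in glucose 44, 13 and 14 in WT and 3, 8 and 3 in 2SA, without overlap. Its log2 fold change of 2SA over WT was −2.37 ± 0.72 there (edgeR adjusted p = 0.819). In sucrose it was −0.86 ± 0.63, with overlap. ADH6 also lies near an end, 12288 bases from it, and its 5 tested neighbours, FET4 among them, were not called in any comparison without a block.

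Shares of the family's counts show how the mixture moved with the sugar. ADH1 held 77.3% ± 2.76 of family counts in WT in glucose and 63.2% ± 2.77 in sucrose (SD, n = 3). In 2SA it held 78.6% ± 1.66 and 56.4% ± 4.11. Both differences, of −14.1 and −22.1 percentage points, had an exact two-sided permutation p of 0.1, the smallest that 3 against 3 libraries allow. ADH6 held 10.9% ± 2.45 in WT in glucose and 16.6% ± 4.14 in sucrose, and in 2SA 10.6% ± 2.18 and 22.2% ± 0.157. The ADH6 share in sucrose was higher in all 2SA libraries (22.0% to 22.3%) than in all WT libraries (13.0% to 21.1%, exact permutation p = 0.1). ADH2 went from 0.233% ± 0.0868 to 4.11% ± 3.38 in WT and from 0.301% ± 0.0540 to 5.69% ± 3.49 in 2SA. These are shares of one sum, so a fall in ADH1 alone raises every other share.

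**Figure D5:**
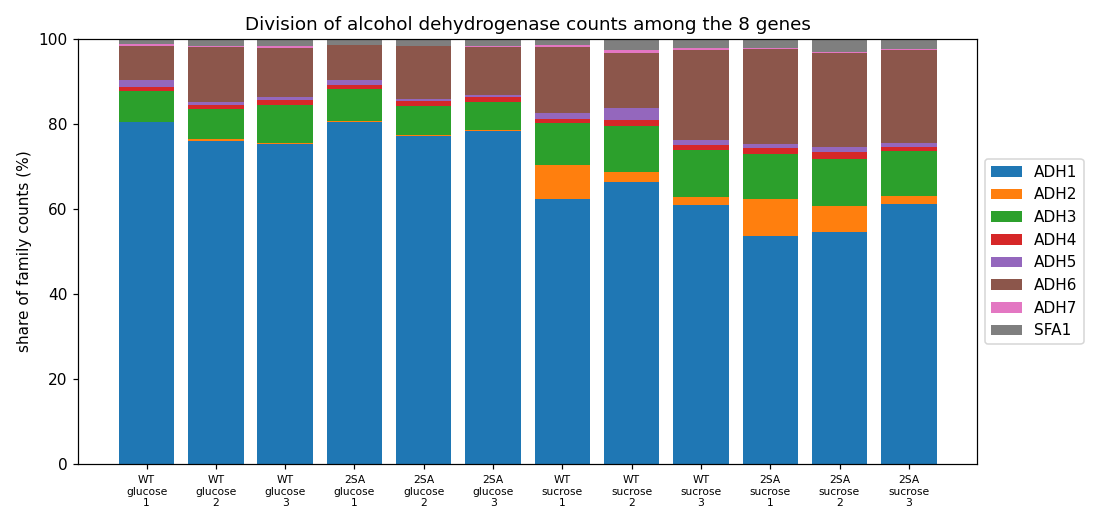
Share of the family's raw counts (vertical axis, %) held by each of the 8 genes in the 12 libraries. ADH1 takes 75.3% to 80.4% in glucose and 53.6% to 66.3% in sucrose, while the mean shares of ADH6 and ADH2 are larger in sucrose.

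Genes that work beside the family were read from 8 lists of related steps, with every listed gene tested. Without a block, none of the listed genes was called between genotypes in either sugar. With the block, 2 of 7 regulators of ADH2 were called lower in 2SA in sucrose, where 1.61% of all features were. MIG1, a glucose repressor gene, had log2 −0.63 ± 0.07 (edgeR adjusted p = 0.00441) and the activator gene CAT8 −0.61 ± 0.09 (adjusted p = 0.0147), both with overlapping groups. The activator gene ADR1 was not called in sucrose over glucose without a block, with 32.2 ± 18.7 and 180 ± 174 CPM in WT (log2 2.49 ± 0.77, edgeR adjusted p = 0.0918), and DESeq2 called it higher (adjusted p = 0.00761). The WT sucrose libraries ran from 79.4 to 382 CPM in ADR1. With 2SA the ADR1 means were 40.9 ± 26.1 CPM in glucose and 111 ± 81.0 in sucrose.

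On the route from pyruvate to acetyl-CoA, sucrose gave called differences on the oxidizing side. Of 7 acetaldehyde dehydrogenase and acetyl-CoA synthetase genes, 3 were higher in sucrose in WT and 2 in 2SA, with 0 lower, where 2.91% and 1.61% of all features were called higher. The list had a median log2 of 0.99 in WT and 0.64 in 2SA, against 0.04 and 0.02 over all features. ALD4, the main mitochondrial acetaldehyde dehydrogenase gene, rose from 292 ± 74.6 to 1022 ± 210 CPM in WT (log2 1.81 ± 0.36) and from 324 ± 135 to 975 ± 382 in 2SA (1.59 ± 0.36). ACS1, which makes acetyl-CoA from acetate, rose from 22.2 ± 3.32 to 90.4 ± 30 CPM in WT (log2 2.03 ± 0.38) and from 23.5 ± 3.20 to 115 ± 56.6 in 2SA (2.29 ± 0.38). ALD2 was called in WT alone (log2 0.99 ± 0.19), and whether the genotypes differ in it did not pass the interaction test (0% of 6085 features did). ALD6 and ACS2 had log2 values of 0.13 ± 0.35 and −0.0005 ± 0.25 in WT.

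Of 3 pyruvate decarboxylase genes none was called between sugars. PDC1, the main one, had 3359 ± 754 CPM in WT in glucose and 1297 ± 518 in sucrose (log2 −1.37 ± 0.43, edgeR adjusted p = 0.0930), and DESeq2 called it lower (adjusted p = 0.0129). With 2SA the PDC1 means were 3394 ± 446 CPM in glucose and 1112 ± 575 in sucrose. Of 11 other oxidoreductases, BDH1 for butanediol was higher in sucrose in WT (log2 1.64 ± 0.32), and in 2SA it was not called (1.35 ± 0.32, edgeR adjusted p = 0.0567). Of 6 genes of the amino acid route to higher alcohols, the branched-chain aminotransferase gene BAT2 was higher in both genotypes (log2 1.44 ± 0.26 and 1.61 ± 0.27). Of 7 genes of NADH oxidation and glycerol, the external mitochondrial NADH dehydrogenase gene NDE2 was higher in both (log2 2.84 ± 0.55 and 2.53 ± 0.54). Of 6 zinc genes, ZPS1 was (log2 1.20 ± 0.22 and 0.97 ± 0.22), and of 3 genes of formaldehyde detoxification none was called. As a list the 8 members had median log2 values of 0.20 in WT and 0.22 in 2SA between sugars, and −0.02 and −0.002 between genotypes in glucose and sucrose.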

How the data were processed

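RNA was sequenced from 12 yeast libraries. The authors deposited raw read counts per feature, whole numbers with no normalization. Reads were aligned with Bowtie 0.12.2 to sacCer3, per the submitters' processing notes. The sources used here do not name the counting program, the strand setting or the treatment of reads that match several places. Without the strand setting, sense and antisense reads cannot be told apart. Of 6047 features matched to the R64 annotation by locus tag, 99.1% had the same start and end, and R64 was used for sequences, gene names and positions.

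Counts were tested with edgeR 4.0.16 in R 4.3.3 (quasi-likelihood F-test, TMM factors 0.922 to 1.11, default filter with minimum count 10, 1 mean per group, all 12 libraries, 8 residual degrees of freedom). Of 7127 features 6085 were tested, and p-values were adjusted over all of them by Benjamini-Hochberg. CPM are TMM-scaled. Pairing was checked by correlating deviations from group means over genes. Same-numbered WT and 2SA libraries had r of 0.545 to 0.654 in glucose and 0.603 to 0.847 in sucrose, all over 0.1, and glucose and sucrose libraries −0.195 to 0.479. The block therefore joins WT and 2SA libraries within each sugar, with 4 residual degrees of freedom. The labels do not explain this pairing, and the design text names the replicates biological. Near copies were sought with BLAST+ 2.17.0. DESeq2 1.42.0, other scalings, no filter, left-out libraries and smaller fits were alternatives. The edgeR test was checked on simulated counts for 2SA against WT in glucose alone, with and without the block. The simulation gave every gene the same spread, and the other comparisons were not simulated.

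Members, lists and tests were chosen with earlier results of these data known. Named genes are the 8 members, up to 4 called genes of each list, the 3 features on each side of ADH7 and ADH4, and the 3 features most like ADH7 and ADH2. ADH6 neighbours, PDC1, ADR1, MIG1, CAT8, ALD6, ACS2 and the blocked values of IRC4, RDS1 and AAD3 were added after their values were seen.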

Additional observations from a re-analysis of the deposited data

How the results depend on the processing

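In glucose the counts of features called higher and lower in 2SA were 2 and 3, and 7 and 22 with the replicate block within carbon source, 2 and 7 with the additive replicate block, 5 and 24 with DESeq2, and 1 and 0 with only the compared groups. In sucrose they were 1 and 3, and 14 and 98, 1 and 9, 9 and 33, and 0 and 0 in the same order, with 0 lower without both sucrose libraries numbered 2, a setting chosen after seeing the data. With libraries left out and no block they ran from 1 to 2 higher and 0 to 4 lower in glucose, and from 0 to 2 higher and 0 to 3 lower in sucrose. Leaving out all libraries numbered 2 with the block within carbon source, a change of both choices at once, gave 2 and 8 in glucose and 2 and 13 in sucrose. For sucrose over glucose in WT, 177 higher and 32 lower became 341 and 193 with DESeq2, 363 and 273 with the additive block, and 9 and 1 with the compared groups. Library totals alone gave 306 higher. In 2SA, 98 and 17 became 218 and 127, 214 and 133, and 4 and 1, with 185 higher by library totals alone. With libraries left out these ran from 0 to 256 and 0 to 170 in WT and from 0 to 121 and 0 to 36 in 2SA. All 4 counts were 0 when all libraries numbered 2 were left out, which leaves 2 per group. The block within carbon source gives no value for comparisons of sugars.

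Among members, the 1 called lower in each genotype comparison became 0 with only the compared groups, and 0 to 1 with libraries left out. It became 2 in sucrose with the replicate block within carbon source and 0 without both sucrose libraries numbered 2. The 1 called higher in each comparison of sugars became 0 with only the compared groups and ran from 0 to 1 with libraries left out. For sucrose over glucose in 2SA, DESeq2 also called 1 member lower in sucrose (ADH1). The interaction gave 0 calls among features and members in all settings, and DESeq2 called 0. At an unadjusted p under 0.05 it had 10 features in edgeR without a block and 302 with the block within carbon source. A share of 0.05 of the 6085 features is expected under that limit where none differs, and 10 is far below it. For 2SA against WT the fit without a block had 171 features under it in glucose and 242 in sucrose, and the blocked fit 639 and 1292. Uncalled genotype comparisons without a block are therefore no evidence of equal levels.

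No called member changed direction in its called comparison. Uncalled values near 0 did. SFA1 in sucrose over glucose in WT was −0.004 with DESeq2 and −0.01 with its size factors. ADH4 in 2SA was −0.01 with both, and ADH5 in 2SA was 0.03 with the additive block, 0.06 with library totals and 0.04 without both sucrose libraries numbered 2. ADH2 in 2SA against WT in sucrose was −0.05 there, and the ADH4 interaction 0.04. The ADH2 interaction was 0.01 and 0.03 with the 2 replicate blocks. With libraries left out, more uncalled values took both signs. In 2SA against WT they ran in glucose from −0.09 to 0.09 for ADH1, −0.19 to 0.07 for ADH6 and −0.0003 to 0.17 for SFA1, and in sucrose from −0.50 to 0.03 for ADH1, −0.43 to 1.39 for ADH2, −0.26 to 0.14 for ADH3 and −0.04 to 0.20 for ADH4. In sucrose over glucose they ran in WT from −0.01 to 0.28 for ADH3, −0.03 to 0.19 for ADH4, −0.05 to 0.76 for ADH5 and −0.15 to 0.13 for SFA1, and in 2SA from −0.08 to 0.15 for ADH4 and −0.28 to 0.49 for ADH5. The interaction ran from −0.51 to 0.02 for ADH1, −0.79 to 1.04 for ADH2, −0.10 to 0.30 for ADH3, −0.18 to 0.09 for ADH4, −0.83 to 0.20 for ADH5 and −0.06 to 0.32 for ADH7. The cause of these changes was not tested. Depth is least for ADH7 in 2SA, with 59 to 125 counts per library.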
